A study of Mus musculus with 8 samples.

Results

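The transcription factors Pdx1, Ptf1a, Nkx6-1, Mnx1, Nr5a2, Prox1 and Glis3 were followed in the early mouse pancreas with and without Sox9. They are 7 of the 27566 gene names on the array and were chosen by name from what is known of pancreatic progenitors. Earlier results of these data were also known at that point, so that their direction is not independent evidence. Probes were taken by the gene name in the scanner files, which gave 8 probes for 6 of the genes. No probe was named Mnx1 or by its older name Hlxb9, so the Mnx1 probe was taken by its RefSeq accession, which made 9 probes of 41174 in all. The mutant embryos were Sox9fl/fl; Pdx1-Cre, that is, homozygous for a Sox9 allele flanked by loxP sites and carrying a Cre recombinase driven by the promoter of Pdx1, itself one of the 7 genes. The wild-type embryos were Sox9fl/fl littermates without Cre, so that both groups carried the floxed allele and the groups differed in Cre. Sox9-flox was on a mixed FVB/N x C57Bl/6J background and Pdx1-Cre on C57Bl/6J. Dorsal pancreatic epithelium was dissected at e12.5 (embryonic day), and RNA pooled from 3 embryos was measured on 1 single-colour Agilent array per sample, with 4 arrays per genotype. The sample labels number 4 replicates per genotype, whereas the study's design text speaks of 3, so that n = 4 rests on the labels. The comparison asks which of these factors depend on Sox9.

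These factors act in the multipotent progenitors of the pancreas, the epithelial cells that give rise to acinar, duct and endocrine cells. Pdx1, Nkx6-1 and Mnx1 are homeodomain proteins, Prox1 is a divergent homeodomain protein, Ptf1a is a basic helix-loop-helix protein, Nr5a2 is an orphan nuclear receptor and Glis3 is a zinc finger protein. Pdx1 and Ptf1a are needed to form the organ, Mnx1 is needed for the dorsal bud, and Nkx6-1 and Ptf1a oppose each other as progenitors separate into trunk and tip domains. Several of them serve later in one lineage, Ptf1a and Nr5a2 in acinar cells and Pdx1, Nkx6-1 and Mnx1 in beta cells.

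Each value below rests on a 60-base probe, and the first 30 bases are shown so that the measured stretch of each transcript can be found. Coordinates follow the scanner files (mouse assembly mm8), and no annotation of that assembly was used to place probes in exons.
Nkx6-1, chr5:101899606-101899665, minus strand: cccccagtatcctggctgctcgccgggcct
Pdx1, chr5:147585343-147585402, plus strand: ccctgagcttctgaaaactttgaggctgct
Mnx1, chr5:29804292-29804351, minus strand: cgtcggagaaaggaaaaaacagtgttaagt
Ptf1a, chr2:19364847-19364906, plus strand: aggaccccagaaaactcaacagtaaatctt
Nr5a2, chr1:138660737-138660796, minus strand: atgcaaagacagtgattctgcatatggcct
Prox1 probe 1, chr1:191819555-191819614, minus strand: ggggggaataaagcagtttaaagttgtata
Prox1 probe 2, chr1:191823947-191824006, minus strand: gattgcaacgctcttttgaatgtatggata
Prox1 probe 3, chr1:191854278-191861335, minus strand: acatctcaccttattcaggaagcgcaatgc
Glis3, chr19:28420273-28423806, minus strand: gaggacacatcttgacactaaaccttatgc
The listed positions of Prox1 probe 3 and of the Glis3 probe run over 7058 and 3534 bases, more than the probe itself. The longest run of bases that any of the 9 probes shared, on either strand, with a probe of another gene was 14.

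Signals are given as log2 values relative to the 75th percentile of the processed signal on the same array, so that 0 is that percentile. The share of spots well above background ranged from 59.4% to 77.7% over the arrays. Sox9 itself ran from 1.82 to 3.01 in wild-type and from -1.79 to 0.77 in mutant samples, so that it differed by -2.70 (log2, SE 0.517) with a limma adjusted p = 0.0250. That call was lost without wild-type replicate 1, 2 or 4 or mutant replicate 1 (limma adjusted p = 0.0669, 0.0523, 0.0686 and 0.0727) and with the Y-linked level as a covariate (0.261), with all differences below 0. Of its 3 probes, 1 did not pass over all probes (-1.44, limma adjusted p = 0.0748). The mean log2 signal of 28 general epithelial genes (such as Cdh1 and Epcam) ran from 0.74 to 1.25 in wild-type and from -1.39 to -0.19 in mutant samples, without overlap. In such bulk samples, fewer cells of a type and less RNA per cell cannot be told apart. The mean of 3 Y-linked genes was -6.44, -5.19, -1.13 and -6.58 in the wild-type samples, taken in replicate order, against -1.87 to -0.17 in the mutants. The Y-linked level was therefore not balanced between the genotypes. Xist, another sex-linked gene, ran from 3.44 to 4.75 in wild-type samples. Among the mutants it was -5.73 in replicate 1 and 3.11 to 3.56 in replicates 2 to 4. The samples hold no label for the sex of the pooled embryos, and its part in the differences was not tested. The labels do not say whether the pools came from separate litters, so that p-values measure the spread between these samples.

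Pdx1, Ptf1a, Nkx6-1, Mnx1, Nr5a2 and Prox1 all fell in the mutant samples, by 4.15-fold for Prox1 to 12.6-fold for Nkx6-1. The seventh, Glis3, was not well above background on any array and was not tested. In limma, over 18375 genes, these 6 of 6 factors tested passed an adjusted p of 0.05 as lower, against 3.87% of all genes (711 of them, with 291 or 1.58% higher). With the mean level of Y-linked genes as a covariate, 0 of the 6 passed (limma adjusted p = 0.109 to 0.220), and 2 of all genes passed. In the authors' value table the 6 factors also passed, against 3.52% of all genes, with 734 genes lower and 525 higher. Their groups did not overlap, which held in the same direction for 7.98% of all genes. The median log2 difference of the 6 was -2.84, and that of all genes was 0.017. Of the 6, Mnx1 was above background on 2 of 4 mutant arrays and the other 5 on all 8.

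Nkx6-1, a homeodomain repressor of the progenitor trunk and of beta cells, showed the largest fall of the 6. In replicate order, its log2 signal was 4.27, 3.88, 4.0 and 4.07 in wild-type samples and 0.22, -0.79, 0.12 and 2.03 in mutants. Every mutant sample lay below every wild-type sample, and mutant replicate 4 stood between the other mutants and the wild-type. As the processed signal this was 7149 to 10732 in wild-type and 302 to 2551 in mutant samples. The wild-type mean was 4.05 ± 0.16 (SD, n = 4) and the mutant mean 0.40 ± 1.18 (SD, n = 4), so that the factor lost 12.6-fold. That difference, -3.66 with an SE of 0.516, had a limma adjusted p = 0.00954 and ranked 11 among the falls of all genes tested.

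Pdx1, the homeodomain factor that marks the pancreatic domain of the gut tube, fell by 3.08 on the log2 scale, which is 8.44-fold. Wild-type replicates 1 to 4 measured 0.46, -0.36, -0.13 and -0.18, and mutant replicates 1 to 4 measured -3.02, -4.20, -3.61 and -1.68. The mutant samples kept the order seen for Nkx6-1, with replicate 2 lowest and replicate 4 highest, while the wild-type order differed. The means were -0.05 ± 0.35 (SD, n = 4) and -3.13 ± 1.08 (SD, n = 4), with an SE of the difference of 0.492 and an adjusted p = 0.0131 in limma. All 8 arrays were above background for Pdx1.

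Mnx1, which is needed for the dorsal bud and later for beta cells, fell by 2.93 on the log2 scale, or 7.64-fold, with an SE of 0.336 and a limma adjusted p = 0.00805. The wild-type arrays gave -1.45, -1.40, -0.86 and -1.37 in replicate order, and the mutant arrays -4.12, -4.91, -4.52 and -3.25. Mutant replicates 2 and 3 were not above background, and the size of the fall differed with the treatment of background. The log2 difference was -1.60 in the authors' value table and -1.51 with normexp background correction, against -2.93 from the processed signal. Both alternatives kept the call (limma adjusted p = 0.00183 in the authors' table).

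**Figure D1:**
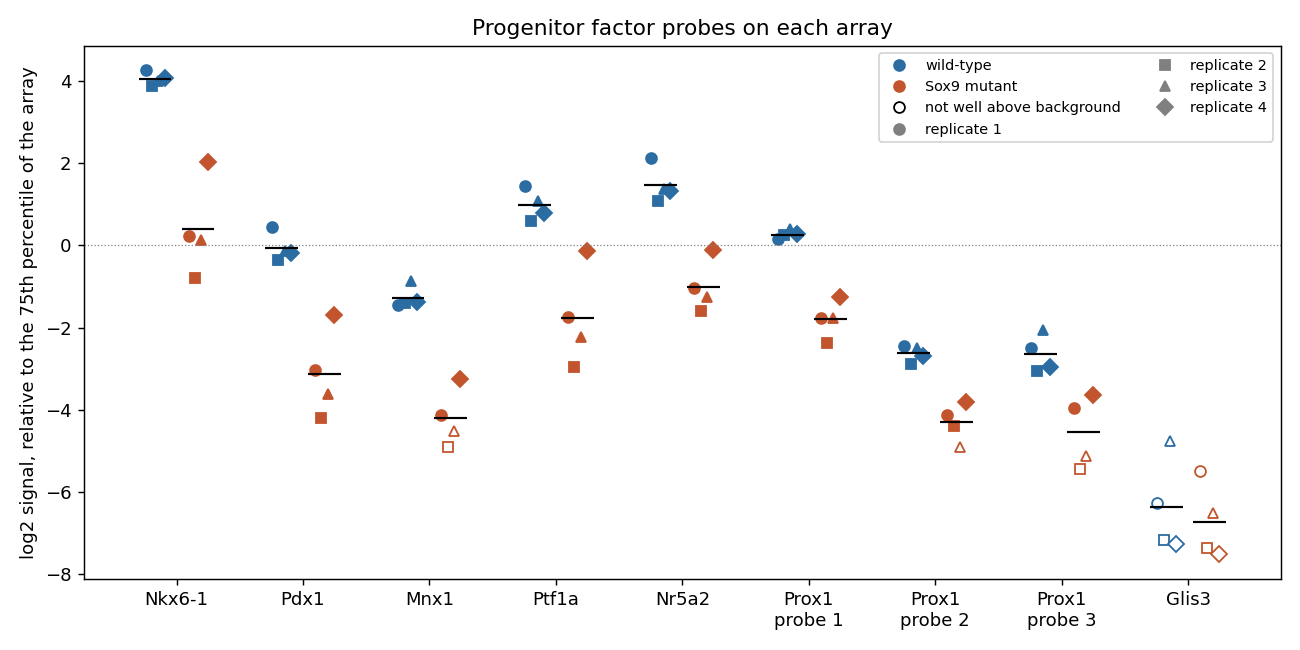
Log2 signal of the 9 probes on the 8 arrays (y axis, relative to the 75th percentile of each array), with wild-type in blue, Sox9 mutant in orange, symbols for the replicate and bars for the mean of 4 arrays. Open symbols were not well above background, and levels of different probes are not to be compared. Every probe but that of Glis3 has all mutant points below all wild-type points, as had 7.98% of all genes (the share over probes was not counted).

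Ptf1a, the basic helix-loop-helix factor that commits foregut cells to the pancreas and later drives acinar genes, was the least certain of the 6 calls. It measured 1.46, 0.60, 1.09 and 0.80 on the wild-type arrays and -1.74, -2.95, -2.22 and -0.13 on the mutant arrays, each in replicate order. The groups did not overlap, but mutant replicate 4, at -0.13, lay near wild-type replicate 2, at 0.60. The group means were 0.98 ± 0.37 (SD, n = 4) and -1.76 ± 1.19 (SD, n = 4). Their difference of -2.74, a 6.70-fold fall with an SE of 0.540, had a limma adjusted p = 0.0268. Ptf1a no longer passed without wild-type replicate 1 (limma adjusted p = 0.0756), 3 (0.0669) or 4 (0.0701) or mutant replicate 1 (0.0739), 2 (0.0607) or 3 (0.0680), while over all 8 such fits the difference stayed between -3.29 and -2.35. None of the other 5 factors lost its call on leaving out any of the 8 arrays.

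Nr5a2, an orphan nuclear receptor of embryonic endoderm and acinar cells, fell by 2.48 on the log2 scale, which is 5.57-fold, with an SE of 0.341 and a limma adjusted p = 0.00949. Replicates 1 to 4 stood at 2.12, 1.09, 1.38 and 1.32 in the wild-type and at -1.03, -1.60, -1.26 and -0.12 in the mutant. The lowest wild-type sample, at 1.09, and the highest mutant sample, at -0.12, stayed apart. Nr5a2 differed by -2.25 in the authors' value table.

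Prox1, which acts in pancreatic and liver progenitors and in lymphatic endothelium, had 3 probes, and all of them were lower in the mutant samples. The brightest, probe 1, measured 0.15, 0.25, 0.40 and 0.27 in the wild-type samples and -1.75, -2.38, -1.76 and -1.27 in the mutants, in replicate order. Its groups were the tightest of the 6 genes (SD 0.10 and 0.46, n = 4 each), and its difference of -2.05 (SE 0.218, limma adjusted p = 0.00805) was the smallest of the processed signal. With normexp and in the authors' value table Mnx1 differed less (-1.51 and -1.60) than Prox1 (-1.71 and -1.76). Probe 2 ran from -2.88 to -2.43 in wild-type and from -4.89 to -3.80 in mutant samples, which gave -1.68 (adjusted p = 0.0115 in limma over 27389 probes), above background on 3 of 4 mutant arrays. Probe 3, whose listed position spans 7058 bases, ran from -3.06 to -2.05 and from -5.44 to -3.65. Its difference of -1.90 did not pass (limma adjusted p = 0.0517), and it was above background on 2 of 4. Over all probes, 2.88% passed as lower. On each of the 3 probes, which read the same samples, every mutant sample lay below every wild-type sample, as held for 7.98% of all genes.

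Glis3, a Krüppel-like zinc finger protein linked to neonatal diabetes, could not be measured. Its only probe had processed signals of 4.84, 4.31, 19.4 and 4.14 on wild-type and 13.7, 3.16, 4.51 and 3.41 on mutant arrays, in replicate order, none of them well above background. The values overlapped between genotypes, and no fold is given. The higher value in each genotype came from wild-type replicate 3 and mutant replicate 1, both on slide 2, which also held mutant replicate 4, at 3.41.

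**Figure D2:**
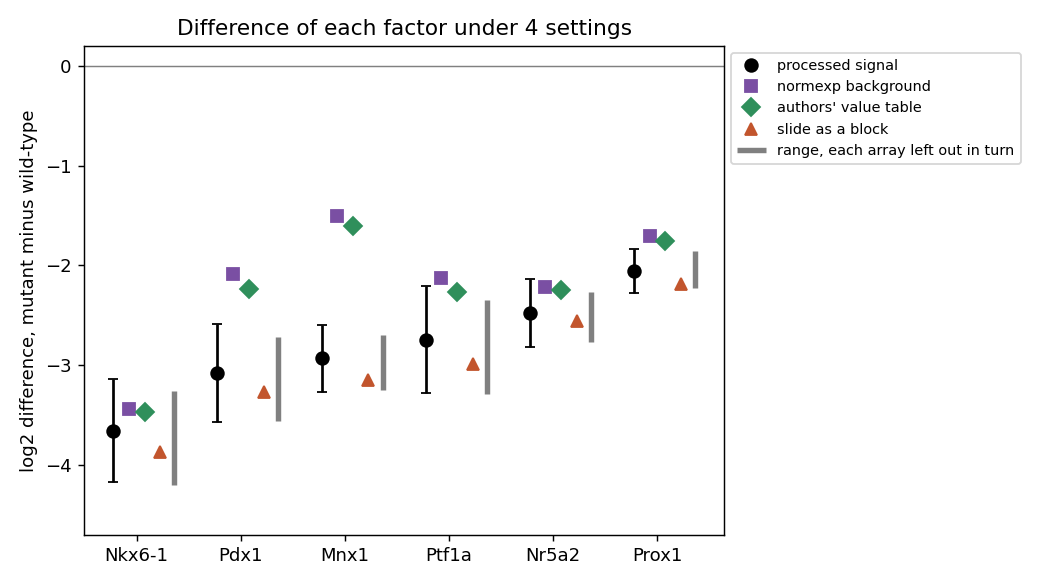
Log2 difference of each of the 6 factors tested, mutant minus wild-type, from the processed signal (black, with its SE), with normexp background correction, in the authors' value table and with slide as a block. Grey bars span the fits that left out 1 array each; all points lie below 0, and the treatment of background moves Mnx1 the most, from -2.93 to -1.51.

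The factors moved together between genotypes and among the mutant samples, but not all of them did so among the wild-type samples. Among the mutant samples, replicate 4 was highest and replicate 2 lowest for 6 of 6 factors. Among the wild-type samples, replicate 1 was highest for 4 of them, and replicate 3 for the other two, Mnx1 and Prox1. The spread between samples was wider in the mutant than in the wild-type for each of the 6. After each genotype's mean was removed, the correlation of 2 factors over the 8 arrays ran from 0.66 for Nr5a2 and Prox1 to 0.99 for Pdx1 and Ptf1a, with a median of 0.90 over 15 pairs. These points share the arrays and their scaling and are given as a description. The mutant samples, with the wider spread, weigh more in these correlations, and they were not set against those of other gene pairs.

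Among the mutants, the epithelial genes ranked the samples as the 6 factors did. Among the wild-type samples they did not for all, since replicate 1 was highest for the epithelial mean and lowest for Mnx1 and Prox1. The mean of the 28 epithelial genes was -0.74, -1.39, -1.19 and -0.19 on the mutant arrays and 1.25, 0.74, 0.98 and 0.91 on the wild-type arrays, in replicate order. Its deviations from the genotype means correlated over the 8 arrays with those of Pdx1 (r = 0.99), Ptf1a (0.98), Nr5a2 (0.95), Nkx6-1 (0.92), Mnx1 (0.85) and Prox1 (0.78). Sox9 itself gave 0.78 with the epithelial mean. Its correlation with the factors ran from 0.61 for Mnx1 to 0.86 for Nkx6-1. What part a lower epithelial share of the tissue had in these falls was not tested.

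**Figure D3:**
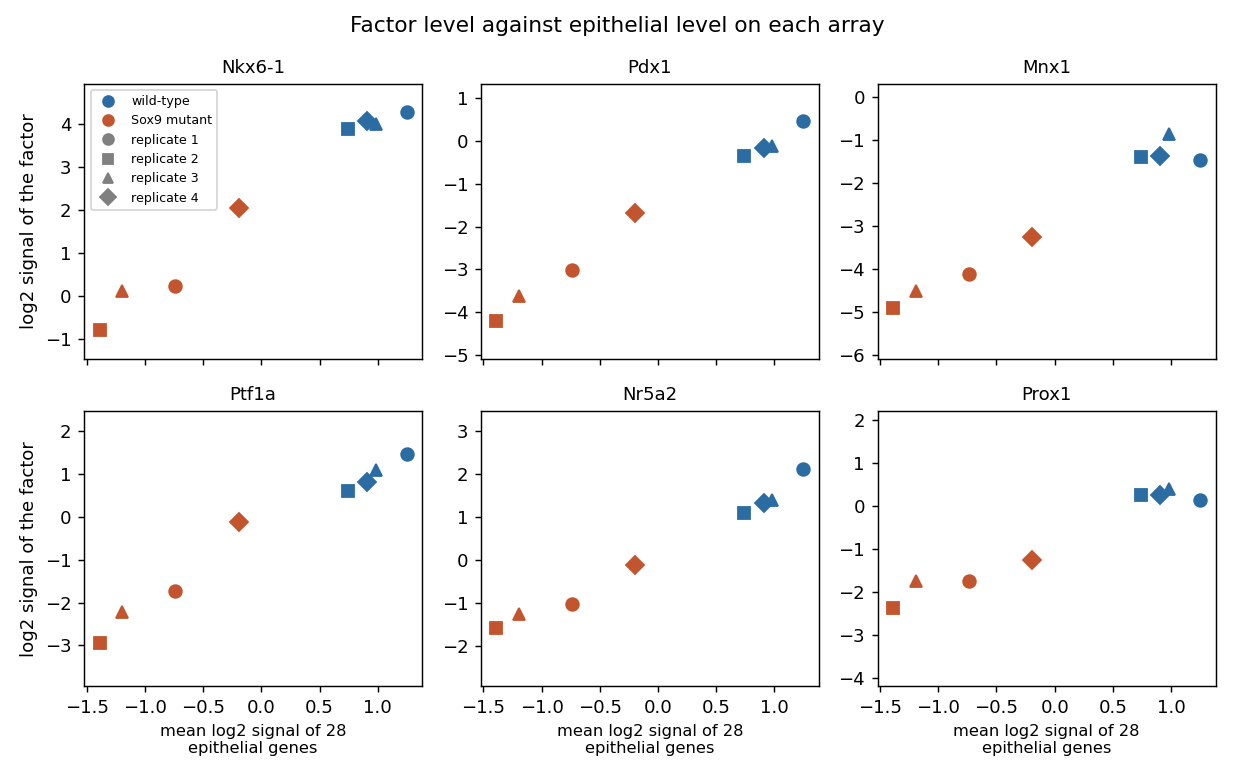
Log2 signal of each factor (y axis, the same span in every panel) against the mean log2 signal of 28 epithelial genes on the same array (x axis), with wild-type in blue, mutant in orange and symbols for the replicate. The mutant samples line up from replicate 2 (-1.39 on the x axis) to replicate 4 (-0.19) in each panel, with Prox1 the flattest.

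For each factor, the 3 genes whose deviations from the genotype means followed it most closely over the 8 arrays were listed, by Pearson's r and with no test. Pdx1 and Ptf1a were each other's closest gene (0.99), and Foxa3, a forkhead factor of endoderm, was among the 3 for both, at 0.99. Pdx1 also had Elapor1 (0.99), and Ptf1a had Macc1 (0.99), both of which were lower (-3.45 and -2.32). Nkx6-1 had Fgfr2 (0.99), the receptor for mesenchymal Fgf10, which fell by 1.40, and Adgrg1 (0.99), an adhesion receptor, which fell by 1.27. Nr5a2 had the acinar carboxypeptidase Cpa1 (0.997), the adaptor Grb7 (0.99) and the cilium gene Pkhd1 (0.99), with differences of -2.10, -2.13 and -2.88 that passed. Mnx1 had Ttyh1 (0.97), a chloride channel family member, and Cdh1 (0.96), which encodes E-cadherin. The closest genes of Prox1, Ctnnd2 (0.97), Nlgn1 (0.97) and Celsr3 (0.96), had differences of -0.33, -0.08 and -0.21 and did not pass (adjusted p = 0.548 to 0.958 in limma). For Nkx6-1 and Mnx1, the remaining gene is listed in the files by a GenBank entry alone, and neither passed (-1.25 and -0.63, limma adjusted p = 0.190 and 0.318).

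Relative to the epithelial genes of the same arrays, the factors divided. The log2 ratio of Nkx6-1 to the epithelial mean differed by -1.81 in the mutant samples, that of Pdx1 by -1.23, that of Mnx1 by -1.09 and that of Nr5a2 by -0.63. For these 4 the groups did not overlap, which held as lower for 0.381% of all genes, and the exact two-sided permutation p was 0.0286 each, the smallest that 4 against 4 arrays can give. The epithelial mean itself fell, which raises the ratio of any gene that did not change. The share of all genes is therefore low by construction, and the share among genes called lower was not counted. For Ptf1a the ratio differed by -0.90 with overlapping groups (exact permutation p = 0.0857), because mutant replicate 4, at 0.06, lay within the wild-type range of -0.14 to 0.21. Prox1 differed by -0.21, again with overlap (exact permutation p = 0.429, with an SE of 0.413 from the limma fit below). Sox9 differed by -0.85 (exact permutation p = 0.114).

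The same ratios fitted in limma called Nkx6-1 (adjusted p = 1.98e-05), Pdx1 (0.00315), Mnx1 (0.00912) and Ptf1a (0.0310) but not Nr5a2 (0.129) or Prox1 (0.620), against 0.316% of all genes as lower. This share is also low by construction, since the epithelial mean fell. That fit gave every gene the same SE of 0.413, although their own spreads differed (SD 0.08 in wild-type and 0.70 in mutant samples for Nkx6-1). The exact test over samples is therefore the one to read. For Mnx1 the ratio differed by -0.05 with normexp and by -0.09 in the authors' table (limma adjusted p = 0.850 and 0.724), and Nr5a2 passed in both (-0.76 and -0.74, limma adjusted p = 0.00404 and 0.00513). A ratio within an array shows unequal change of a factor and of the epithelial genes, and both had fallen.

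**Figure D4:**
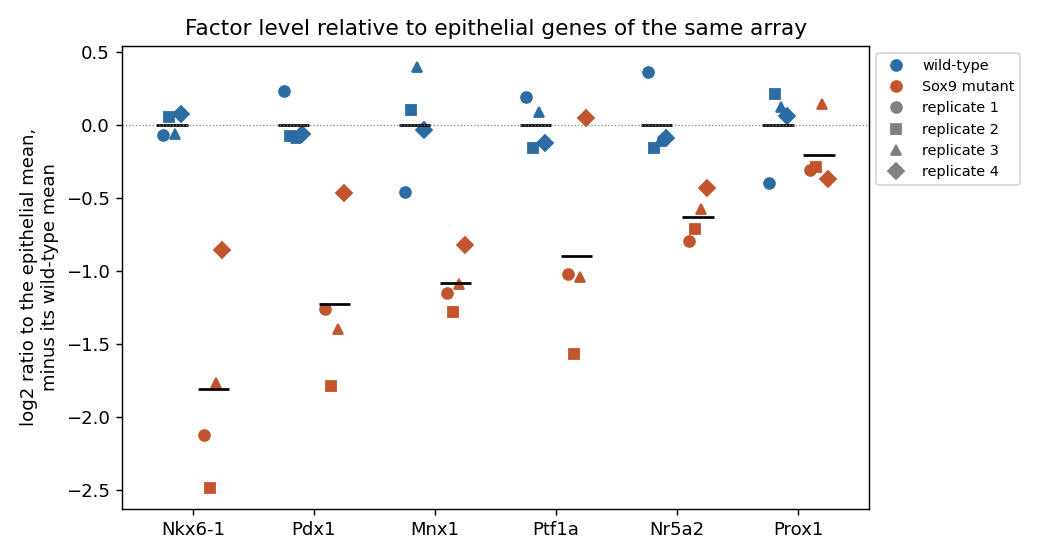
Log2 ratio of each factor to the mean of 28 epithelial genes on the same array, shifted so that the wild-type mean of each factor is 0, with wild-type in blue, mutant in orange, symbols for the replicate and bars for the mean of 4 arrays. The mutant points of Nkx6-1 lie lowest, around -1.81, and those of Prox1 overlap the wild-type points.

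Set against each other on the same arrays, the factors fell by amounts that could mostly not be separated. Of the 15 pairs, 5 had a log2 ratio whose genotypes did not overlap, a share of 33.3%. Among all pairs of the 711 genes called lower this share was 38.5%, so that the pairs of factors do not stand out. The log2 ratio of Nkx6-1 was lower to Prox1 (-1.60), to Ptf1a (-0.91) and to Pdx1 (-0.58). That of Mnx1 to Prox1 differed by -0.88, and that of Pdx1 to Ptf1a by -0.33. The order within these last 2 pairs turned with the treatment of background: with normexp Mnx1 differed by -1.51 and Prox1 by -1.71, and Pdx1 by -2.08 and Ptf1a by -2.13. It also turned in the authors' value table, with -1.60 for Mnx1 and -1.76 for Prox1, and -2.24 for Pdx1 and -2.26 for Ptf1a. In the other 10 pairs the ratios overlapped.

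The arrays lay on 3 slides, each with samples of both genotypes. Within slide 1 (1 array of each genotype) the log2 differences of the factors ran from -3.76 to -2.0. Within slide 2 (1 wild-type and 2 mutant arrays) they ran from -2.87 to -1.91, and within slide 3 (2 and 1) from -4.96 to -2.59. Nkx6-1 had the largest fall of the 6 on each slide, and Prox1 the smallest. Slide 3 holds mutant replicate 2, the lowest mutant sample, and slide 2 holds replicate 4, the highest. With the mean of the Y-linked genes as a covariate, which ended the 6 calls, the differences were -3.32 to -2.12. Wild-type replicate 3 was the only wild-type pool with a Y-linked mean in the mutant range. It lay above every mutant sample for 6 of 6 factors, which follows from groups that did not overlap. It is 1 array, and the part of the Y-linked level was not tested. The mutant mean minus that replicate ran from -3.60 for Nkx6-1 to -2.19 for Prox1.

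Other factors of the progenitor network fell with them, but not all. Of 19 further progenitor and endoderm factors 18 were measured, of which 9 fell, 1 rose and 8 did not pass, with a median of -1.14. Nkx6-2, the closest relative of Nkx6-1, fell by 2.83 (SE 0.275; limma adjusted p = 0.00717), and Nkx2-2, a homeodomain factor of progenitors and endocrine cells, fell by 3.03. Foxa3 fell by 2.05. Onecut2 rose by 1.83, while its relative Onecut1 fell by 2.09. Gata4, a tip and endoderm factor, had a difference of -0.10 (adjusted p = 0.873 in limma) and Isl1, which is also made by pancreatic mesenchyme, of 0.15 (0.755).

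Among relatives by sequence family the picture was different. Of 15 listed, 10 were measured, 1 fell and 9 did not pass, with a median of -0.00095. The one was Nkx6-2, whereas Nkx6-3 (0.01, above background on 2 wild-type and 3 mutant arrays), Nr5a1, the adrenal and gonadal relative of Nr5a2 (-0.01), Glis1 (-0.11) and Glis2 (-0.10) did not pass. Hand1 (0.91) and Msx2 (-0.75) were the next by p and did not pass either (adjusted p = 0.121 and 0.163 in limma).

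The genes these factors are known to act with or on were split. Ptf1a works in a trimer with an E protein and with Rbpj, which is replaced by Rbpjl as acinar cells mature. Of these 5 partner genes Rbpjl fell, with a difference of -3.05 (SE 0.642; limma adjusted p = 0.0336). The others had differences of 0.05 (Rbpj), -0.07 (Tcf3), 0.20 (Tcf4) and 0.21 (Tcf12) and did not pass. Of 16 acinar genes under Ptf1a and Nr5a2, 13 were measured, 8 fell and 5 did not pass, with a median of -1.94. The differences were -3.53 for Clps, the colipase gene, -2.0 for Bhlha15, an acinar factor, and -2.10 for Cpa1. Dll1, a Notch ligand under Ptf1a in the early pancreas, fell by 1.10 (adjusted p = 0.0394 in limma).

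Of 17 endocrine genes under Pdx1, Nkx6-1, Mnx1 and Glis3, 14 were measured, 10 fell and 4 did not pass, with a median of -1.36. Neurog3, which starts endocrine differentiation, fell by 2.68, and Pax4, a beta cell factor, fell by 3.82 (2 of its 4 mutant spots were above background). Slc2a2, a glucose transporter under Pdx1, fell by 1.88. Ins1 fell by 0.92 (adjusted p = 0.0149 in limma), while Ins2 had -0.56 and did not pass (0.0640).

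Of the 28 general epithelial genes, 22 fell and 6 did not pass, with a median of -2.08, and all 28 had a difference below 0. Their summed signal, in multiples of the 75th percentile, was 158 to 222 in wild-type and 75.7 to 97.3 in mutant samples. The claudin Cldn4 differed by -2.13, the protease inhibitor Spint1 by -2.40 and the keratin Krt8 by -1.56.

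**Figure D5:**
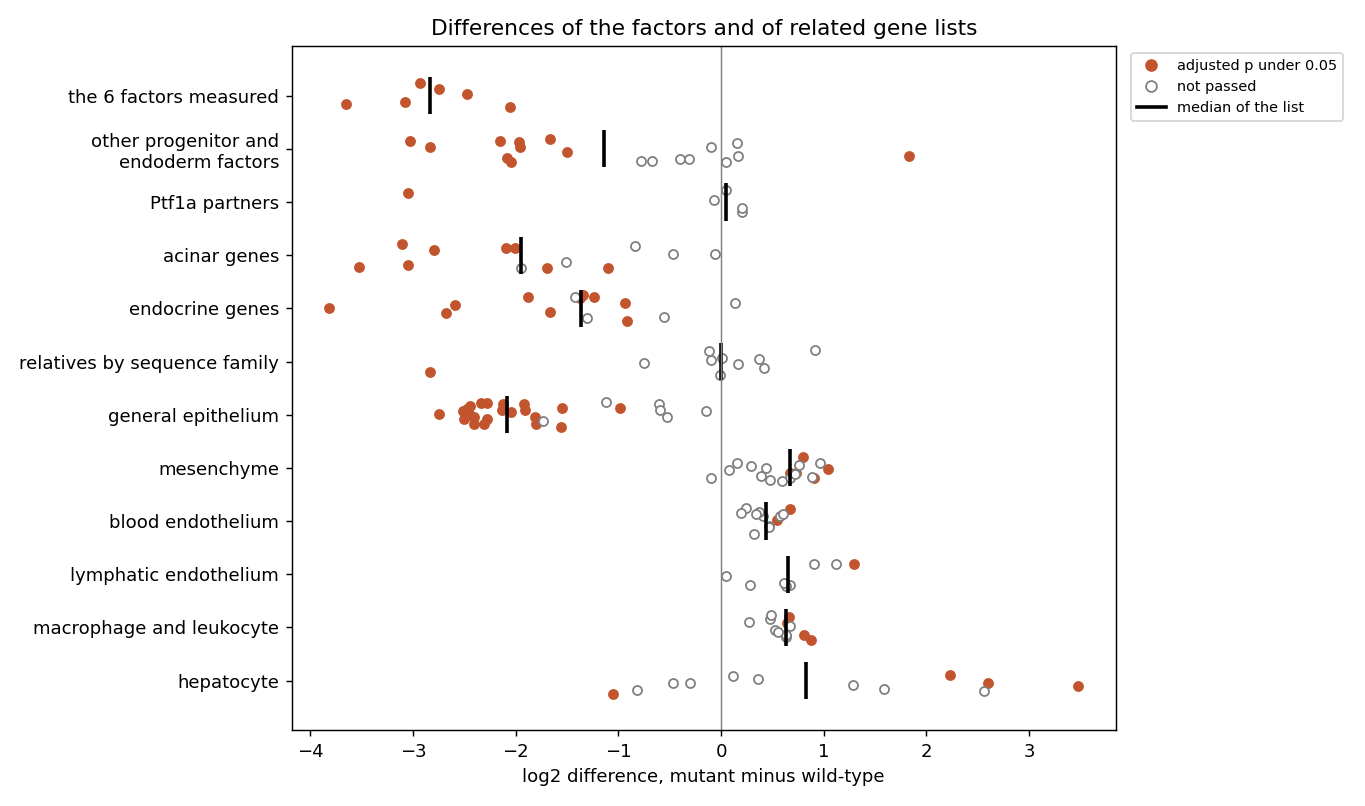
Log2 difference, mutant minus wild-type, of each measured gene (points) in the 6 factors and in related gene lists and cell type markers, filled where the adjusted p is under 0.05, with the median of each list as a bar. The factors, with a median of -2.84, and the epithelial genes, with -2.08, lie furthest to the left, and markers of mesenchyme, vessels and macrophages lie mostly above 0.

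The dissected tissue also held markers of other cell types. Of 18 mesenchyme genes, 5 rose and 13 did not pass, with a median of 0.67 and a summed signal of 319 to 401 in wild-type and 456 to 608 in mutant samples. Nkx3-2, a factor of splanchnic mesenchyme, rose by 0.91, Tlx1 by 1.04 and Pdgfra by 0.80. Of 12 blood endothelium genes 2 rose and 10 did not pass (median 0.44), of 12 macrophage genes 4 rose and 8 did not pass (0.63), and of 9 mesothelium genes measured 3 rose and 6 did not pass (0.80). Of 10 measured genes of neural crest, glia and neurons 3 fell and 7 did not pass (-0.75), and of 10 erythroid genes none passed (0.44). The mesenchyme and vessel levels moved opposite to the 6 factors, and their part in the result was not tested.

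Prox1 and Nr5a2 are also made outside the pancreatic epithelium. Of 8 lymphatic endothelium markers, all had a difference above 0, 1 rose (Reln, by 1.30) and 7 did not pass, with a summed signal of 18.9 to 22.0 in wild-type and 27.8 to 45.0 in mutant samples. Lyve1, a lymphatic receptor also found on macrophages, had a difference of 0.63 (adjusted p = 0.0894 in limma). Of 16 hepatocyte markers, 12 were measured, 3 rose, 1 fell and 8 did not pass, with a summed signal of 61.5 to 98.8 and of 74.8 to 147. The plasma protein genes Itih2, Afp and Alb rose by 2.60, 2.23 and 3.48, while Rbp4 fell by 1.05. Rbp4 was the brightest of the list in wild-type samples (mean 5.71, with Afp at 3.78), so that the hepatocyte sum mixes opposite changes. The summed lymphatic signal was higher in every mutant sample, in which Prox1 was lower, whereas the hepatocyte ranges overlapped. The lymphatic sum rested mostly on Nrp2 and Itga9 (wild-type means 3.62 and 2.83), which differed by 0.61 and 0.67 and did not pass. Flt4 and Pdpn differed by 0.28 and 0.05 (limma adjusted p = 0.773 and 0.943). The sum is therefore not a measure of lymphatic tissue. The part of lymphatic or liver cells in the values of Prox1 and Nr5a2 was not tested.

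Promoters of the 7 genes were read from RefSeq (GRCm38.p6), as 9 windows of 300 bases from 250 bases before to 50 after a start, because all the factors tested fell. Both strands were searched for 4 motifs, and no window held matches of more than 1 of them. The core bound by Sox factors, ACAAT, was found in 0 of the 9 windows, against 31.0% of 32851 promoters. The site core of Nr5a2, AAGGTCA, was in 0 of 9, against 4.7%. A homeodomain core, TAATTA, was in 0 of 9, against 5.3%. The Rbpj core, TGGGAA, was in 2 of 9, against 25.6%. One was the promoter of Ptf1a, whose protein partners Rbpj, at chr2:19445413-19445712, plus strand, with the match in capitals: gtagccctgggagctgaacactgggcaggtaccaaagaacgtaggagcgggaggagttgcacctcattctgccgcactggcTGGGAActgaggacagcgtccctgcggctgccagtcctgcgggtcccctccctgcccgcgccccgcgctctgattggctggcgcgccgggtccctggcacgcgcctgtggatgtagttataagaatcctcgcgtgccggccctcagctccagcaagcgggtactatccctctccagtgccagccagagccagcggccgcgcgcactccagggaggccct
The other was 1 of the 2 promoters of Prox1. A match is not a binding site, and its absence says only that these letters are not in these windows. Their G and C content ran from 42% in a window of Nr5a2 to 76.3% in that of Glis3.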

How the data were processed

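The scanner files were written by Agilent Feature Extraction 9.5.3.1, per the file headers. In them the deposited processed signal, an intensity, had been background subtracted and detrended within the array, with no normalization between arrays. Mean spot signals and local background medians were deposited as unprocessed intensity. The quality and control columns are deposited flags, a unit other than a signal. The authors' deposited value table holds intensity values with a median of 227 on every array, so that the arrays had been brought to a common level. Per the submitters' processing notes limma was used, with no version or steps given. Its 33067 features were matched by row number, with a rank correlation of at least 0.999 to each array's mean signal.

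Each array held 45018 spots, of which 1639 controls and flagged spots were left out. Log2 signals were scaled to each array's 75th percentile, with no pseudocount. Probes well above background on at least 4 of 8 arrays were kept, and each gene was represented by its brightest kept probe. Names came from RefSeq accessions for 23483 of 41174 probes, and otherwise from the file or an older name. Mutant and wild-type were compared with limma 3.58.1 in R 4.3.3 (lmFit, eBayes, two-sided, Benjamini-Hochberg over all genes, threshold 0.05), checked on simulated data. Single values were compared by an exact permutation test over 70 assignments. Arrays give no read depth, so their number, 4 per genotype, limits precision.

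The named genes are the 7 factors, Sox9, the 3 genes closest to each factor and, from each list, the 3 with the smallest p, with a few others of the lists, such as Rbpj, Gata4 or Ins2, named after their values were seen. Some genes of the lists are not reported here by name. The factors and lists were chosen with earlier results of these data known, so that no list is independent evidence of its direction. Alternatives were background, values, scaling, filter, probe choice, flags, slide, replicate number, array weights, Y-linked level and leaving out each array. Tables and plots used Python 3.11.15 with pandas 2.3.3 and matplotlib 3.10.9.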

Additional observations from a re-analysis of the deposited data

Results flagged for a closer look

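One of the 18 sets of 4 values, 9 probes in 2 genotypes, held a sample far from the others. For Mnx1 in wild-type samples, replicate 3 (-0.86) lay apart from replicates 1, 2 and 4 (-1.45 to -1.37), with a gap of 0.86 of the whole range, above Dixon's critical value. Chance flags about 1 in 20 such sets, so that 1 of 18 is what chance gives.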

How the results depend on the processing

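Each factor kept its direction in every alternative that tested it, which was all of them except for Mnx1 under the filter on all 8 arrays, where 5 of 5 were called. Otherwise 5 or 6 factors were called lower (with no filter Glis3 was tested too and did not pass), except with the Y-linked level as a covariate, where it was 0 of 6 (and 2 of all genes). Their median difference of -2.84 became -2.10 with normexp, -2.25 in the authors' table and -2.52 with array weights, and ran from -3.27 to -2.52 on leaving out 1 array each, with 5 to 6 factors called and 400 to 983 genes. Over all genes, the 1002 calls became 588 with median scaling, 419 with no filter on dim probes, 340 with the replicate number as a block, 2028 with array weights and 1538 where slide was a random block. The cause of these shifts was not tested. The replicate block called 5 factors, losing Ptf1a (adjusted p = 0.0639 in limma). Same-numbered samples did not deviate together (r = -0.35, -0.30, -0.0048 and 0.086 over genes), so the numbers were not taken to pair them. Ptf1a was also lost with no filter (adjusted p = 0.0646). Sox9 was lost with no filter (0.0600) and with the replicate block (0.0691). Relative to epithelial genes, 3 to 5 factors were called on leaving out 1 array each, and 3 to 4 otherwise. These calls come from the limma fit that gave every gene the same SE. With the keratins left out of the epithelial list, the ratio of Nkx6-1 differed by -1.64, Pdx1 by -1.06 and Mnx1 by -0.91. Ptf1a differed by -0.72 and was no longer called (limma adjusted p = 0.102), and Nr5a2 and Prox1 differed by -0.46 and -0.03. The ratios thus depend on the epithelial genes chosen.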
